A study of Mus musculus with 7 samples.

Results

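Guanylate-binding proteins (GBPs) and immunity-related GTPases (IRGs) were examined in conventional type 1 dendritic cells (cDC1) of the mouse lung. The group was taken by gene name and holds 10 genes, the GBPs Gbp2, Gbp3, Gbp4, Gbp5, Gbp7, Gbp8 and Gbp9 and the IRGs Irgm1, Irgm2 and Igtp, each read by 1 of the 25428 probe sets of the table. All 10 were measured on all 7 Mouse Gene 2.0 ST arrays, and none was left out by a filter. Healthy control mice gave 4 of these arrays (nLung) and mice with late KP tumors gave 3 (KP(l)), and the comparison asked how an advanced lung tumor changes the expression profile of the resident cDC1. KP(l) mice had received 100000 KP cells, a mouse lung tumor line, into the tail vein, and their lungs were taken on day 28. All mice were of the C57/BL6 strain, their age is not given in the sources used here, and the sorted cDC1 of 2 to 3 mice were pooled for an array, so that an array is the mean of a pool and the tumors are those of 1 injected line. CD11c-positive cells were enriched on a column and sorted by the surface markers CD103, CD11b, SiglecF, CD11c and MHC class II.

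GBPs are large GTPases that interferons, above all interferon gamma (IFNγ), switch on in many cell types. They bind to the membranes of vacuoles that hold microbes, or to bacteria themselves, break them open and help inflammasomes to sense what is released. IRGs are smaller GTPases of the same response. Irgm1, Irgm2 and Igtp (also called Irgm3) belong to a regulatory branch that sits on the cell's own membranes and keeps the effector IRGs inactive there, and Igtp lies on the endoplasmic reticulum and on lipid droplets, which have been linked to cross-presentation by dendritic cells. In the mouse most of these genes lie in clusters of close copies, so that neighbours have similar sequences. How far the probes of the array are shared between such copies is not given in the sources used here, and a value of 1 member may hold signal of another.

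Interferons reach promoters through 2 elements, the interferon-stimulated response element (ISRE), bound by factors of the IRF family and by the complex that type I interferon forms, and the gamma-activated site (GAS), bound by STAT dimers. Their cores were searched by letters, GAAANNGAAA or TTTCNNTTTC for the ISRE and TTCNNNGAA for the GAS, which reads the same on both strands, in windows from 250 bases before to 50 bases after each annotated start (RefSeq, build GRCm38.p6). Windows were found for 7 of the 10 members, not for Gbp4, Gbp8 and Gbp9. An ISRE core lay in a window of 7 of these 7 genes, against 3.99% of the 27025 genes with a window, and a GAS core in 4 of the 7, against 9.55%. The stretches below are shown because they hold every core found in the members, in capitals, with at most 12 flanking bases, and each reads 5′ to 3′ on the strand of the gene.
Gbp5 (chr3:142496684-142496902, plus strand): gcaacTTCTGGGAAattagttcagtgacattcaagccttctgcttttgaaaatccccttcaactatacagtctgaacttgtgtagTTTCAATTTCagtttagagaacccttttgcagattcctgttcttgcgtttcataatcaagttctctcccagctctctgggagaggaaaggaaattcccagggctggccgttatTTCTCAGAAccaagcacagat
Gbp7 (chr3:142530218-142530304, plus strand): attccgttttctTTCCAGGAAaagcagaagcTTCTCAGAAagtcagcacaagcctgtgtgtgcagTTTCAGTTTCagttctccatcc
Gbp3 (chr3:142559987-142560026, plus strand): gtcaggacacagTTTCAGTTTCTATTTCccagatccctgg
Gbp2 (chr3:142620592-142620625, plus strand): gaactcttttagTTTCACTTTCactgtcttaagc
Irgm1 (chr11:48871423-48871462, minus strand): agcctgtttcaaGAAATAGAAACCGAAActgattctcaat
Igtp (chr11:58199499-58199543, plus strand): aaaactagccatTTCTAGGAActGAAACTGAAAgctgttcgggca
Irgm2 (chr11:58214890-58214934, plus strand): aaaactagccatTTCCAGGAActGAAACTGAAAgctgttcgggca

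Gbp5, Gbp7, Igtp and Irgm2 held both cores, which 0.454% of the 32851 windows did. Gbp3, Gbp2 and Irgm1 held ISRE cores without a GAS core in these letters, and the capitals of Gbp3 and Irgm1 are 2 ISRE cores that overlap. A second annotated start of Gbp3 has a window with neither core. The stretches of Igtp and Irgm2 differed at 1 of 45 bases, T16C, with the base of Igtp first and positions counted from 1 at the 5′ end of the printed stretch, and the substitution falls between the fixed letters of the GAS core. Over the best alignment of their windows without gaps, 68.1% of 270 bases were the same, whereas no other pair of windows of the members passed 37.9%. In the map of the cores by distance from the start, the ISRE core of Gbp5 began at position -165 from the start, and those of the other 6 genes began at -64 or nearer to it. These matches describe the sequence only, and no binding was measured here.

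**Figure D1:**
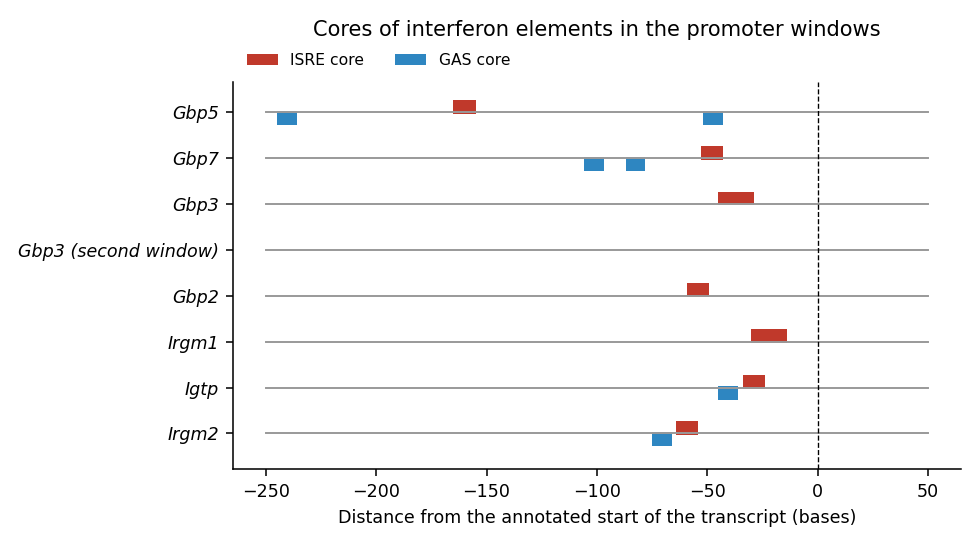
Positions of ISRE cores (red) and GAS cores (blue) in the windows of the 7 members with a promoter entry, on an axis of distance from the annotated start in bases. ISRE cores lie in all 7 genes and GAS cores in Gbp5, Gbp7, Igtp and Irgm2, while the second window of Gbp3 is empty.

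The deposited values are on the log2 scale, where the array medians ran from 3.49 to 3.57, and all levels below are linear, 2 to the power of that value. The arrays fell into 2 sets that cross the groups, replicates 1 and 2 of both groups with an upper quartile of 5.11 to 5.17, and nLung replicates 3 and 4 with KP(l) replicate 3 at 5.22 to 5.28. What the sets stand for is not given in the sources used here, and the differences within the sets are given in that order beside the pooled one. The cDC1 markers were high, with summed levels of 10106 to 11968 in nLung and 9589 to 11924 in KP(l) over 11 genes. Among them Clec9a, the receptor for dead cells that defines cDC1, read 1632 ± 104 (SD, n = 4) and 1311 ± 196 (SD, n = 3), and Itgae, which encodes the sorted marker CD103, 1006 ± 84.3 and 1294 ± 106. Markers of alveolar macrophages (8 genes) summed to 83.5 to 936 in nLung and 83.2 to 1128 in KP(l), and were high on nLung replicate 1 and on KP(l) replicates 1 and 2. Neutrophil markers (6 genes) summed to 43.5 to 62.0 in nLung and to 47.7 to 1531 in KP(l), the highest value being KP(l) replicate 1, where S100a8 (834) and S100a9 (655) stood out while Ly6g, Retnlg, Cxcr2 and Mmp8 read 7.28 to 14.3.

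Gbp2 and Gbp3, both on chromosome 3, had mean levels about 2-fold higher in KP(l) cDC1, with every KP(l) array above the nLung arrays. All 4 GBPs of chromosome 3 and all 3 IRGs of chromosome 11 had log2 differences above 0 and all 3 GBPs of chromosome 5 below 0, but for 8 of 10 members the groups overlapped, the sign of Gbp8 and of Igtp turned when 1 array was left out, and those of Gbp4 and Gbp7 turned between the sets of arrays. Relatives outside the members on the same chromosomes did not all share these signs, with Gbp2b of chromosome 3 at -0.11 and Gbp10 of chromosome 5 at 0.44. Gbp2b lay below the array median on all 7 arrays. With limma and Benjamini-Hochberg adjustment over all probe sets, 0 of the 10 members passed the thresholds for a call, a fold of 2 or more and an adjusted p no higher than 0.05, and so did 0 of all probe sets (0%). The smallest adjusted p of the table was 0.502. When p was not adjusted, 3 of 10 members were higher in KP(l) with p under 0.05, Gbp2, Gbp3 and Gbp5, against 2.62% of all probe sets, and 0 were lower, against 2.24%. That unadjusted threshold is what is meant by passing in the counts of the other gene lists. The KP(l) arrays lay above all nLung arrays for 2 members (2.12% of all probe sets) and below all of them for 0 (1.72%). A log2 fold change above 0 was found for 7 of 10 members and for 54.6% of all probe sets, and a log2 fold change of 0.5 or more for 6 of 10 members and for 5.02% of all. The median log2 fold change was 0.62 over the members and 0.02 over all probe sets, with 0.64 for the 7 GBPs and 0.61 for the 3 IRGs. Among markers of other cells this median was 0.87 (alveolar macrophage), 0.70 (cDC2), 0.57 (B cell) and 0.54 (monocyte and interstitial macrophage). For neutrophil, NK cell, plasmacytoid DC, T cell and epithelial and endothelial markers it was 0.25, 0.14, 0.06, -0.06 and -0.44. The cDC1 markers were at -0.12. A shift of this size was thus not particular to the members. Within the arrays of replicates 1 and 2 the median over the members was 0.45 and within the other 3 arrays 0.58. The same medians were -0.058 and 0.93 for the GBPs and 0.75 and 0.24 for the IRGs, so that the GBP median was above 0 in only the latter set. The members were chosen with results of these arrays known, so these counts describe them and test nothing. Each array averages a population, so that a different mix of cells and a different amount of RNA per cell cannot be told apart. The summed level of cDC2 markers (6 genes) was 144 to 201 in nLung and 254 to 325 in KP(l). This sum was higher in KP(l) without overlap, as were Gbp2 and Gbp3. Of the 6 log2 differences 5 were above 0 and 1 below, Irf4 at -0.58 without overlap, and Itgam was at 0.04. The part of these markers in the members' values was not tested.

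**Figure D2:**
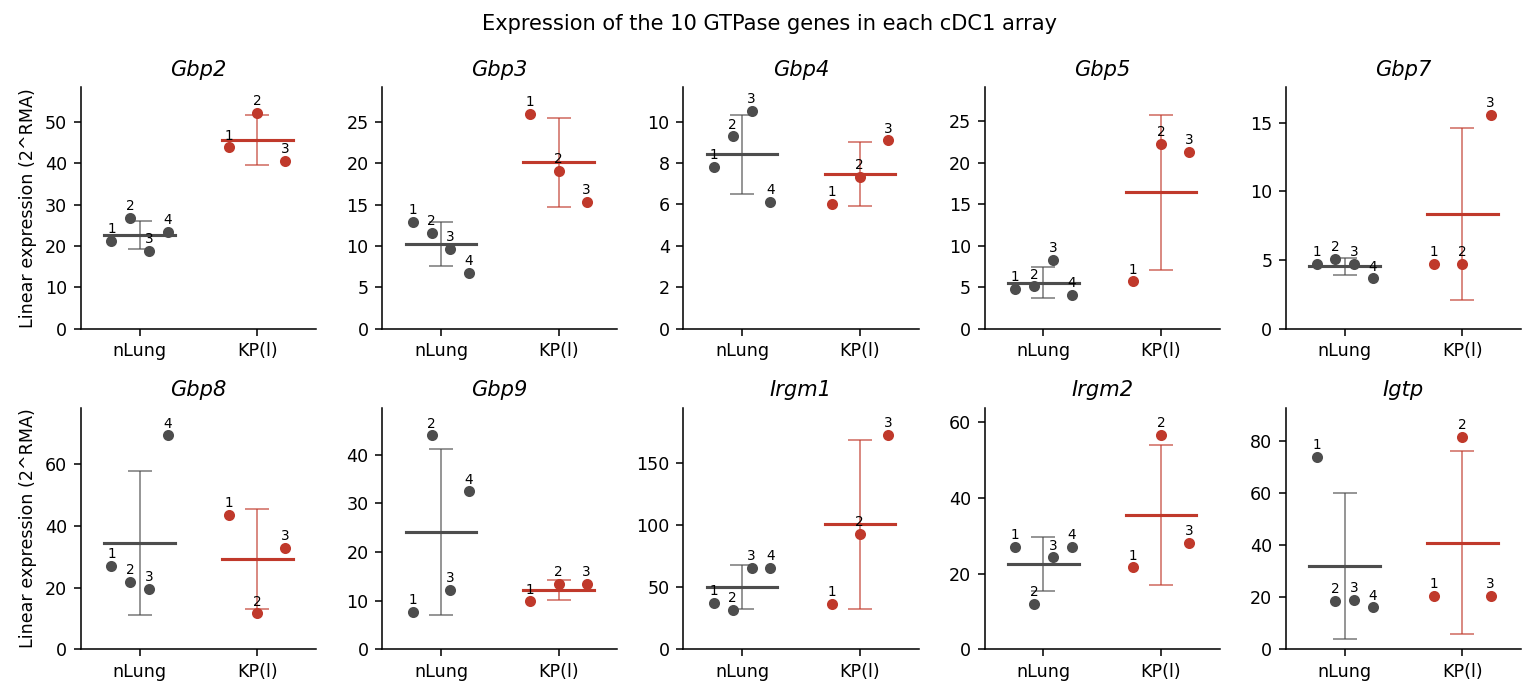
Linear expression (2 to the power of the RMA value, from 0 up) of each member on each array, with the replicate number above each point, a line for the group mean and bars of 1 SD (nLung, 4 arrays; KP(l), 3 arrays). Gbp2 and Gbp3 are the panels in which the groups do not overlap, and in Gbp5 KP(l) replicate 1 lies among the nLung arrays.

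Gbp2, which is anchored to membranes by a prenyl group and acts against Toxoplasma and Francisella, had linear levels of 21.3, 26.8, 18.8 and 23.3 on nLung replicates 1 to 4 and of 43.8, 52.2 and 40.5 on KP(l) replicates 1 to 3. The lowest KP(l) array lay above the highest nLung array, and the gap between them was wider than the range of either group. The means were 22.6 ± 3.37 (SD, n = 4) and 45.5 ± 6.02 (SD, n = 3). On the log2 scale the difference was 1.02 (SE 0.15, 95% interval 0.65 to 1.38), a fold of 2.02. The exact permutation test over the 35 splits of the arrays gave p = 0.0286, the smallest it can give, and limma's adjusted p over all probe sets was 0.623. Within the sets of arrays the difference was 1.0 and 0.95, and with any 1 array left out it ran from 0.91 to 1.10.

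Gbp3, a GBP of the same chromosome 3 cluster, which as a whole takes part in the caspase-11 response to bacteria, read 12.9, 11.6, 9.63 and 6.78 on the nLung arrays and 26.0, 19.1 and 15.4 on the KP(l) arrays. Here too the groups were separate, although KP(l) replicate 3 and nLung replicate 1 came close. Mean levels were 10.2 ± 2.66 (SD, n = 4) and 20.2 ± 5.40 (SD, n = 3), a log2 difference of 0.99 (SE 0.27, 95% interval 0.34 to 1.63) and a fold of 1.98. The exact permutation p was 0.0286 and limma's adjusted p 0.912. Differences within the sets of arrays were 0.86 and 0.93. Gbp3 lay below the array median on 3 arrays, nLung replicates 2, 3 and 4, where a low level may understate the fold.

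Gbp5, a GBP tied to the NLRP3 inflammasome and to the Golgi, read 4.78, 5.11, 8.28 and 4.05 in nLung and 5.70, 22.3 and 21.4 in KP(l). KP(l) replicates 2 and 3 stood far above the nLung arrays, and KP(l) replicate 1 lay among them. The means were 5.55 ± 1.87 (SD, n = 4) and 16.5 ± 9.32 (SD, n = 3), and the log2 difference of 1.38 was the largest among the members (SE 0.53, 95% interval 0.13 to 2.64, a fold of 2.61), with 1.19 and 1.88 within the sets of arrays. Its exact permutation p was 0.0857 and limma's adjusted p 0.912. The unadjusted limma p of 0.0355 passed 0.05 without KP(l) replicate 1, where the difference was 2.03, and without nLung replicate 3 (1.59). It did not pass without nLung replicate 1 (1.33), 2 (1.36) or 4 (1.25), or without KP(l) replicate 2 (1.04) or 3 (1.08). On 5 of the 7 arrays Gbp5 lay below the median of all probe sets, the exceptions being KP(l) replicates 2 and 3.

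Gbp7, which has been linked to the NADPH oxidase and autophagy, was read at 4.70, 5.09, 4.70 and 3.67 in nLung and at 4.70, 4.70 and 15.5 in KP(l). KP(l) replicate 3 alone stood out, and it was the only array on which the gene lay above the array median. The same value, 4.70, stood on 4 arrays. The log2 difference was 0.64 (SE 0.44, 95% interval -0.41 to 1.68, limma's adjusted p 0.912, exact permutation p 0.286). Without KP(l) replicate 3 it was 0.060, and within the sets of arrays it was -0.058 and 1.90.

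The 3 GBPs of the chromosome 5 cluster, Gbp8, Gbp9 and Gbp4, are less studied, and none had higher levels in KP(l) on average. Gbp4 read 7.81, 9.29, 10.5 and 6.11 in nLung and 6.01, 7.34 and 9.09 in KP(l). The groups overlapped, all 7 arrays lay below the array median, and the log2 difference was -0.16 (SE 0.23, 95% interval -0.70 to 0.37, exact permutation p 0.486, limma's adjusted p 0.932). Within the sets of arrays it was -0.36 and 0.18, a turn of direction. At levels this low the array may understate a difference.

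Gbp8 read 27.2, 21.8, 19.6 and 69.3 in nLung and 43.5, 11.6 and 32.9 in KP(l). The highest array was nLung replicate 4 and the lowest KP(l) replicate 2, so that each group held an end of the range. The log2 difference of -0.23 (SE 0.60, 95% interval -1.67 to 1.21, exact permutation p 0.743, limma's adjusted p 0.969) turned to 0.17 without nLung replicate 4 and to 0.34 without KP(l) replicate 2, and was -0.11 and -0.17 within the sets of arrays. No direction can be given for Gbp8 from these arrays.

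Gbp9 read 7.63, 44.0, 12.2 and 32.5 in nLung and 9.85, 13.4 and 13.4 in KP(l). Its nLung arrays fell into a high pair (replicates 2 and 4) and a low pair, and the KP(l) arrays lay beside the low pair. The log2 difference was -0.66 (SE 0.62, 95% interval -2.14 to 0.82, exact permutation p 0.400, limma's adjusted p 0.918), it ran from -1.10 to -0.26 with 1 array left out, and it was -0.67 and -0.57 within the sets of arrays.

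Irgm1, which in mice is needed for resistance to mycobacteria and for control of autophagy and mitochondria, read 37.6, 32.0, 65.5 and 65.5 in nLung and 36.8, 93.1 and 173 in KP(l). KP(l) replicates 2 and 3 lay above all nLung arrays, and KP(l) replicate 1 sat with the lower nLung pair. Mean levels were 50.2 ± 17.8 (SD, n = 4) and 101 ± 68.2 (SD, n = 3). The log2 difference was 0.82 (SE 0.55, 95% interval -0.50 to 2.13, a fold of 1.76, exact permutation p 0.286, limma's adjusted p 0.912), with 0.75 and 1.40 within the sets of arrays. Without KP(l) replicate 1 it was 1.41, with an unadjusted limma p of 0.0180, and without KP(l) replicate 3 it was 0.30.

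Irgm2, found at the Golgi, read 27.0, 11.9, 24.3 and 27.0 in nLung and 21.7, 56.7 and 28.2 in KP(l). The groups met around 21.7 to 28.2, with nLung replicate 2 below and KP(l) replicate 2 above. Its log2 difference was 0.61 (SE 0.42, 95% interval -0.41 to 1.62, a fold of 1.52, exact permutation p 0.400, limma's adjusted p 0.912), and without KP(l) replicate 2 it was 0.21. Within the sets of arrays it was 0.97 and 0.14.

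Igtp read 73.8, 18.6, 18.8 and 16.0 in nLung and 20.5, 81.6 and 20.5 in KP(l). A single array in each group stood far above the rest of its group, nLung replicate 1 and KP(l) replicate 2. Alveolar macrophage markers were high on both and also on KP(l) replicate 1, where Igtp read 20.5. What sets the high Igtp arrays apart was not tested. The log2 difference was 0.36 (SE 0.72, 95% interval -1.36 to 2.08, exact permutation p 0.457, limma's adjusted p 0.953), and it turned to -0.31 without KP(l) replicate 2 and to -0.12 when the mean alveolar macrophage marker level was added to the fit, and was 0.14 and 0.24 within the sets of arrays. Irgm2, whose promoter stretch differs from that of Igtp at 1 base, was also highest on KP(l) replicate 2, but on nLung replicate 1 it read 27.0, no more than on nLung replicate 4.

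**Figure D3:**
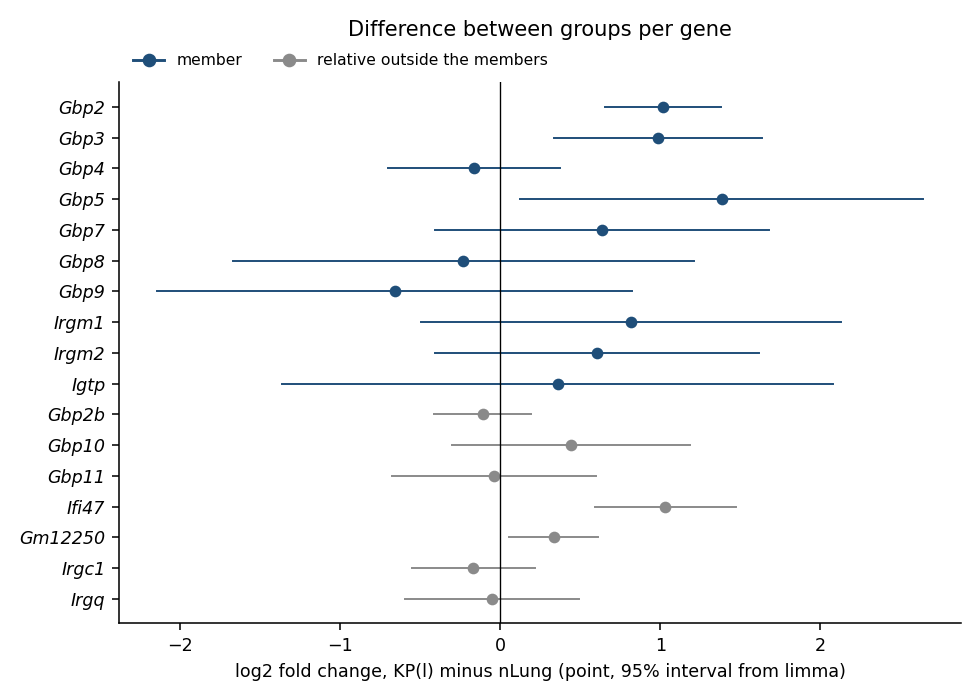
Log2 fold change of each member (blue) and of each measured relative (grey), KP(l) minus nLung, with its 95% interval from limma on 7 arrays. The intervals of Gbp2, Gbp3 and Gbp5 among the members, and of Ifi47 and Gm12250 among the relatives, lie above 0.

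Each member was next set against its own mean over the 7 arrays. The mean of these centred log2 values over the 10 members was -0.18, -0.24, -0.23 and -0.16 on the nLung arrays and -0.11, 0.43 and 0.49 on the KP(l) arrays. KP(l) replicate 1 was thus close to nLung and alone had the lowest level of its group for 5 of 10 members, while KP(l) replicate 2 alone had the highest for 4, ties between arrays not counted. The means of the GBPs and of the IRGs did not share this order. The GBPs had their highest mean on KP(l) replicate 3 (0.54, against 0.14 on replicate 2), and the IRGs on KP(l) replicate 2 (1.10, against 0.39 on replicate 3). Single members did not all follow these means. Among the KP(l) arrays Gbp4 and Gbp7 were highest on replicate 3, Gbp2 and Gbp5 on replicate 2, and Gbp3 and Gbp8 on replicate 1. Gbp9 tied on replicates 2 and 3. Igtp and Irgm2 were highest on replicate 2, but Irgm1 on replicate 3 (1.51, against 0.62 on replicate 2). KP(l) replicate 1 was also the array with high S100a8 and S100a9, and the part of other cells in the members' values there was not tested. Without it the median log2 fold change over the members was 0.84, and 4 of 10 members passed in the higher direction, Irgm1 being added to the 3.

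**Figure D4:**
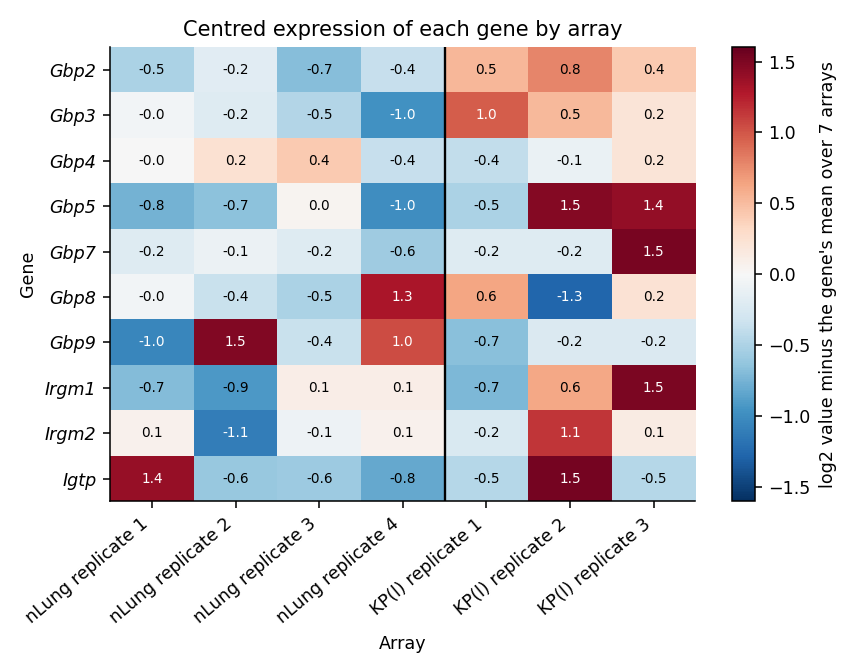
Log2 value of each member on each array minus the gene's mean over the 7 arrays, from blue (lower) to red (higher), with the nLung arrays to the left of the line. Gbp2 and Gbp3 are positive on all 3 KP(l) arrays, Gbp5 on replicates 2 and 3, and the chromosome 5 genes Gbp8 and Gbp9 have their highest values in nLung.

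Of 11 relatives outside the members, 7 were matched by gene symbol, and their median log2 fold change was -0.04. Gbp6, Tgtp1, Tgtp2 and Gvin1 were not matched, which does not show that the array lacks them. Of these, 4 lay below the array median on all 7 arrays, Gbp2b, Gbp11, Gm12250 and Irgc1. Where probe sets below the median mean were left out, 3 relatives remained, with a median of 0.44. Ifi47, an IRG of chromosome 11, read 11.9, 13.6, 13.1 and 8.60 in nLung and 21.3, 27.2 and 23.1 in KP(l) and was separate between the groups. Its log2 difference was 1.03 (SE 0.18, exact permutation p 0.0286, limma's adjusted p 0.735), with 0.92 and 1.12 within the sets of arrays. Gm12250, a further IRG, also did not overlap between groups, at 7.63 to 8.0 in nLung and 8.44 to 11.4 in KP(l), but it lay below the array median throughout and its difference was 0.33. The other 5 had overlapping groups and log2 differences of 0.44 (Gbp10), -0.04 (Gbp11, annotated as a pseudogene), -0.05 (Irgq), -0.11 (Gbp2b) and -0.17 (Irgc1). Of the 7 relatives 2 passed as higher, Ifi47 and Gm12250, and 0 as lower.

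The mRNA of IFNγ itself was low in the sorted cells. Ifng, made chiefly by T and NK cells, lay below the array median on all 7 arrays, at 5.17 ± 0.32 (SD, n = 4) in nLung and 5.26 ± 0.28 (SD, n = 3) in KP(l), and Ifnb1 lay below it too (log2 difference 0.09). Of the 5 interferon ligands measured, 0 passed as higher and 1 as lower. This was Ifna4, a type I interferon, with 92.0 ± 17.8 in nLung and 44.5 ± 3.72 in KP(l) and no overlap (log2 difference -1.03, SE 0.17, limma's adjusted p 0.735). Its relatives Ifna1 and Ifna2 were not matched. How far its probes are shared with other interferon genes, or read background, is not given in the sources used here. The type III interferons Ifnl2 and Ifnl3 differed by -0.18 and 0.03.

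In the chain that carries the IFNγ signal, its feedback inhibitor Socs1 stood apart between the groups, while the receptor chains and kinases overlapped. Of 11 measured genes 2 passed as higher and 1 as lower, and the median log2 fold change was -0.04. Socs1, which blocks JAK kinases and is itself induced by IFNγ, read 31.0, 18.5, 27.4 and 24.4 in nLung and 66.6, 67.7 and 68.3 in KP(l). The KP(l) arrays were nearly identical and more than 2-fold above the highest nLung array, and the log2 difference was 1.44 (SE 0.18, exact permutation p 0.0286, limma's adjusted p 0.502). That adjusted p is the smallest of the whole table, a value that the adjustment can give to several probe sets. Irf1, the factor that binds ISREs after IFNγ, read 40.4 ± 3.55 (SD, n = 4) and 53.3 ± 10.4 (SD, n = 3), a log2 difference of 0.38 (SE 0.16, limma's adjusted p 0.912), with KP(l) replicate 1 among the nLung arrays. Pias1, an inhibitor of STAT factors, had a log2 difference of -0.80 with overlapping groups. The receptor chains Ifngr1 and Ifngr2 (-0.23 and 0.22), the kinases Jak1 and Jak2 (-0.10 and 0.17), Irf8 (-0.01), Socs3 (-0.04) and the phosphatases Ptpn2 and Ptpn11 (-0.66 and -0.17) all had overlapping groups.

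Among other genes of the interferon response, the T cell chemokine Cxcl9 and the checkpoint ligand Cd274 were separate between the groups. In the type I list 2 of 8 genes passed as higher and 0 as lower, with a median of 0.23. These were Irf7, a factor that amplifies type I interferon (log2 difference 1.34), and the receptor chain Ifnar1 (0.35). The groups of Irf7 did not overlap but nearly met, with nLung replicate 3 at 78.6 and KP(l) replicate 1 at 78.9. Of 15 further genes that IFNγ induces, 2 passed as higher and 0 as lower, and the median was 0.11. Cxcl9 read 128 ± 74.5 (SD, n = 4) in nLung and 605 ± 189 (SD, n = 3) in KP(l), a log2 difference of 2.48, and Cd274, which encodes PD-L1, read 46.1 ± 7.30 and 79.7 ± 15.6, a difference of 0.78. For each limma's adjusted p was 0.912.

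Few of the partners with which GBPs and IRGs work passed. The ATG8 conjugation genes and GABARAPs, which load IRGs and GBPs onto vacuoles, had 1 of 10 genes pass as higher and 0 as lower (median 0.05), the 1 being Gabarapl1 (log2 difference 0.84), while Atg3 differed by 0.22. In the list of genes tied to the prenylation of proteins such as Gbp2 and Gbp5, 0 of 6 passed in either direction (median 0.05). Zmpste24 was at 0.90 and Fnta at -0.27. All 8 inflammasome partners had log2 differences below 0 (median -0.39, and -0.14 to -0.25 without nLung replicate 2, KP(l) replicate 2 or KP(l) replicate 3), of which 1 passed, the adaptor Pycard at -0.42, and Casp1 differed by -0.40. Genes that mark damaged vacuoles had 0 of 7 pass (median 0.08), with Tbk1 at 0.37 and the galectin Lgals8 at 0.47.

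Markers of other cells stood beside these values as follows, as summed levels with no level taken off for background. Of the 6 cDC2 markers 2 passed as higher, Mgl2 and Clec10a, and 1 as lower, Irf4. Monocyte and interstitial macrophage markers (9 genes) summed to 2120 to 2494 and 1970 to 2320. Most of each sum was Ccr2, at 1963 to 2324 in nLung and 1589 to 2067 in KP(l). Of the 9 log2 differences 6 were above 0 and 3 below. C1qb read 34.4, 19.8, 19.1 and 25.5 in nLung and 277, 128 and 22.8 in KP(l). T cell markers (8 genes) summed to 76.1 to 183 and 77.3 to 307, with Cd3e below the array median on all 7 arrays, Cd8b1 at 218 on KP(l) replicate 1 against 11.1 to 17.5 on the other 6, and Cd2 at 109 on nLung replicate 1 against 7.49 to 28.9 on the others. NK cell markers (7 genes) summed to 79.7 to 96.6 and 93.2 to 114, B cell markers (4 genes) to 26.3 to 32.4 and 33.0 to 77.2, and plasmacytoid DC markers (5 genes) to 122 to 140 and 97.4 to 133. Epithelial and endothelial markers (7 genes) summed to 377 to 2485 and 216 to 453. When the mean alveolar macrophage marker level was added to the fit as a covariate, the differences of Gbp2 and Gbp3 were 0.96 and 0.76, that of Gbp5 1.71 and that of Irgm1 1.31. These fits do not measure the part of other cells in the members' values, and that part was not tested.

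The probe sets outside the members whose centred profile over the 7 arrays came nearest to the members' mean profile were Tbc1d1, Thap11, Irf1, Gcnt2 and Olfr700, with root mean square differences of 0.08 to 0.10 on the log2 scale. Olfr700 lay below the array median on all 7 arrays. Whether any of these genes is regulated with the members was not tested. Irf1 was the third nearest of all, and it read 42.3, 41.9, 35.1 and 42.3 in nLung and 42.0, 55.5 and 62.5 in KP(l), with replicate 1 of KP(l) at the nLung level as for the members' mean. Among the members Gbp2 lay nearest to the mean profile (0.36) and Gbp9 farthest (0.96).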

How the data were processed

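RNA of lung cDC1, amplified by a NuGEN protocol per the labels and by the Affymetrix 3′ IVT protocol per the methods, was hybridised to 7 Mouse Gene ST 2.0 arrays. Per the methods, the authors computed the log2 values that they deposited with RMA (background correction, quantile normalization and median polish) with the affy package in R 3.4.2 and Bioconductor 3.5 and the BrainArray Entrez definition file 22.0.0. Of 25428 probe sets, 24705 had 1 symbol in the platform table, by which genes were matched, and 723 had none and are not named. The members' Entrez gene identifiers are 14469 (Gbp2), 55932 (Gbp3), 17472 (Gbp4), 229898 (Gbp5), 229900 (Gbp7), 76074 (Gbp8), 236573 (Gbp9), 15944 (Irgm1), 54396 (Irgm2) and 16145 (Igtp). Genes not matched were not analysed here.

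KP(l) and nLung were compared in limma 3.58.1 (R 4.3.3) by lmFit and eBayes, two-sided, with no covariate and no filter, with Benjamini-Hochberg adjustment across the whole table. The script was tested on simulated data. Single members were also tested by an exact two-sided permutation test over 35 splits, and lists were described by counts and medians. The number of arrays limits the precision. Labels call the arrays biological replicates of pooled mice. Same-group arrays correlated at r of 0.947 to 0.978 across probe sets, which are not independent. The deviations of same-numbered arrays of the 2 groups correlated at r of 0.078, 0.023 and 0.19, not all over 0.1, so no pairing was used. Across the groups r was 0.023 to 0.19 for arrays of the same set and -0.12 to -0.018 for arrays of different sets.

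Every member was named, with all measured relatives, interferon ligands and IFNγ signal genes, the 2 genes with the lowest p of each other partner or interferon list, and the 5 nearest profiles. Of the cell type lists, totals are given with some of the genes that this rule names. Members and lists were chosen with earlier results of these data known. Promoter windows are those of RefSeq, build GRCm38.p6. SAM, the study's test, was written anew, with s0 of 0.0484 and all 35 splits, and was kept as an alternative beside array weights, scaling, blocks, ComBat and the leaving out of arrays. SAM after ComBat was chosen after seeing the data. Python 3.11.15 with matplotlib 3.10.9 drew the figures.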

Additional observations from a re-analysis of the deposited data

Results flagged for a closer look

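Among the 10 members' nLung values, 2 held an array far from the other 3, by the gap to the nearest array over the whole range on the log2 scale (Dixon's 95% critical value for 4 samples). Irgm2 on nLung replicate 2 was low, at 11.9 against 24.3 to 27.0 (ratio 0.8698), and Igtp on nLung replicate 1 was high, at 73.8 against 16.0 to 18.8 (ratio 0.8921). Chance flags about 1 in 20 such groups. Groups of 3, and so KP(l), were not tested in this way.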

How the results depend on the processing

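The count of called members was 0 under all alternatives that give calls. Over the whole table, where 0 probe sets were called, ComBat for the 2 sets of arrays followed by limma called 2, and SAM after ComBat called 23, of which 0 were members. Gbp2 there had a false discovery rate of 0.0448 and a log2 difference of 0.99, a fold short of 2, while SAM without ComBat gave it 0.273. The cause of these differences was not tested.

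Members higher at an unadjusted p under 0.05 numbered 3, and 5 with the alveolar macrophage covariate (Gbp2, Gbp3, Gbp5, Gbp7 and Irgm1), where Igtp turned to -0.12. Leaving out 1 array gave 2 to 4, and a median log2 fold change over the members of 0.47 to 0.84. Of single members, Gbp8 ran from -0.62 to 0.34 and Igtp from -0.31 to 0.87 when 1 array was left out. Gbp7 was -0.058 within the arrays of replicates 1 and 2 and 1.90 within the other 3, and Gbp4 was 0.18 within the other 3. Gbp2, Gbp3, Gbp5, Gbp9, Irgm1 and Irgm2 kept their direction under every alternative in which they were fitted. Gbp4, Gbp5 and Gbp7 were not fitted where probe sets below the median mean were left out.

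With the replicate number as a block, a fit to which nLung replicate 4 adds nothing because its number has no partner, 3 members were higher and 1 was lower, Gbp4 at -0.31, and Gbp8 turned to 0.17. It changed no other call. Of the 3 KP(l) arrays only replicate 3 correlated best with the nLung array of its own number.

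Of the medians of the other gene lists under these alternatives, 361 moved by less than the spread between arrays and 37 by more. Genes such as Gbp4 and Gbp7 lay below the array median, where signal over background limits what a difference can show.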
